A study of Mus musculus with 18 samples.

Results

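The comparison set cultured mouse cortical neurons that had been depolarized with KCl for 1 h against cultures of the same kind at 0 h of KCl. It was read on the first (A) of the 2 Affymetrix array sets of the study, and its members are the 3 arrays titled as 1 h and the 3 titled as 0 h, which makes 6 of the 18 arrays of the series. The other arrays hold 6 h of KCl and the second array set. According to the labels the neurons came from cortex of mice at postnatal day 0, although the same label also calls the cultures embryonic. They were grown for 7 days in vitro. The labels give 55 mM KCl, while the text on the series gives 50 mM. Biotinylated cRNA was made from 200 ng of total RNA. No strain, genotype, sex or further drug is named for any group, so the groups differ by label only in the time with KCl, and no cultures left untreated for the same 1 h are among the groups. The series text speaks of 3 independent experiments, and each time has 3 arrays.

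High extracellular potassium depolarizes a neuron and opens voltage-gated calcium channels, among them the L-type. The calcium signal reaches the nucleus through kinases that phosphorylate transcription factors already bound to DNA, among them CREB and the partners of serum response factor. Their first targets, the immediate early genes, are transcribed within minutes and without new protein synthesis. Many of them encode transcription factors that act on a later wave of genes, while others encode synaptic proteins or inhibitors that end the signalling.

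Signals are the authors' linear values, in units that put the mean of every array at 500.2 after trimming 2% of probe sets at each end. A probe set is a group of short probes for 1 transcript or part of one, and 22626 of them were tested after 64 control probe sets were left out. Changes are given as log2 of the signal plus 16, as 1 h minus 0 h with the standard error, and a fold change is that difference made linear, which understates the change of dim genes. The adjusted p comes from limma with Benjamini-Hochberg adjustment over all 22626 probe sets, and "rose" or "fell" means an adjusted p under 0.05. The background level, 74.8 units, is the 95th percentile of the 27 bacterial control probe sets. Replicate 2 at 0 h had the lowest median signal, 163.5, where the highest was 195.6. It also had the most probe sets at or under background, 32.1%, against 28.0% to 29.1% on the other arrays compared. Over the log2 values, replicates 2 and 3 at 1 h correlated at 0.955 with each other. With replicate 3 at 0 h they correlated at 0.951 and 0.953, and with replicate 1 at 1 h at 0.935 and 0.94. Control transcripts carry probe sets at their 5′ and 3′ ends, whose signal ratio reflects how complete the labelled RNA was, and these ratios were not alike at the 2 times. For Actb it was 0.681, 0.614 and 0.711 at 1 h, against 0.347, 0.298 and 0.529 at 0 h (exact two-sided permutation p = 0.1, the smallest that 3 against 3 arrays allow, and 0.2 after adjustment over 4 controls). For Gapdh the ratio was 1.18, 1.27 and 1.07 at 1 h, against 0.830, 0.679 and 1.07 at 0 h (exact p = 0.2, adjusted p = 0.267). For Pcx it was 0.454, 0.477 and 0.521 at 1 h, against 0.189, 0.188 and 0.388 at 0 h (exact p = 0.1, adjusted p = 0.2), and for Tfrc the times overlapped (exact p = 0.6). Replicate 3 at 0 h lay nearest to the 1 h arrays for Actb, Gapdh and Pcx.

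At 1 h the largest changes were rises, and they were led by the immediate early genes. Of 22626 probe sets 544 passed (2.40%), of which 431 were higher (1.90%) and 113 lower (0.499%) at 1 h. Each gene was represented by its brightest probe set, after those with the suffix _x_at, whose probes can match several transcripts, were set aside wherever the gene had another. On these chosen probe sets 131 of 12393 genes rose (1.06%) and 73 fell (0.589%). For 322 genes an _x_at probe set was brighter than the chosen one. The rises went far beyond the falls in size: 16 genes rose by at least 3 on the log2 scale and 11 by at least 4, whereas 3 genes fell by more than 2 and none by 3. Separation of the arrays alone was common in both directions: every 1 h array lay above every 0 h array for 2422 probe sets (10.7%) and below for 2034 (8.99%).

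**Figure D1:**
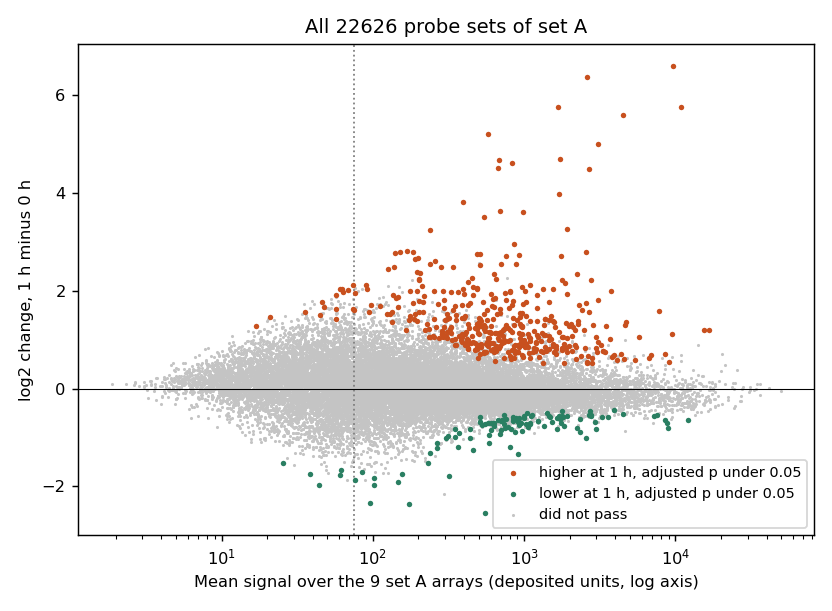
Each point is 1 of 22626 probe sets, with its mean signal over the 9 set A arrays (log axis, deposited units) across and its log2 change, 1 h minus 0 h, upward; orange points were higher at 1 h and green points lower at an adjusted p under 0.05, and the dotted line is the background level of 74.8 units. The rises reach 6.58 (Fos) and the falls -2.54 (Txnip).

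The AP-1 subunits, which pair as Fos and Jun proteins to form a DNA-binding factor, rose most. Fos had signals of 30344, 23802 and 20399.8 at 1 h, against 233, 189 and 311 at 0 h. Every 1 h array was far above every 0 h array, a rise of 95.9-fold (log2 6.58 ± 0.19, adjusted p = 6.52e-10). Junb had 7422, 6423 and 8022 at 1 h, against 86.2, 76.1 and 55.7 at 0 h, and the 0 h arrays lay close to the background level. The rise was 82.9-fold (log2 6.37 ± 0.16, adjusted p = 2.42e-10). Fosb, whose truncated protein form persists in stimulated neurons, had 4689, 3411 and 4741 at 1 h, against 38.0, 81.6 and 78.7 at 0 h. Its 0 h arrays lay on either side of the background level, and the rise was 53.6-fold (log2 5.74 ± 0.23, adjusted p = 1.81e-08). Jun was already well above background at 0 h, with 6026, 4084 and 4715 at 1 h, against 791, 1041 and 1044 at 0 h. It rose 5.06-fold (log2 2.34 ± 0.15, adjusted p = 2.6e-06), and its second probe set rose by 1.25. Jund, the subunit known for steady expression, had 4698, 3606 and 4191 at 1 h, against 2346, 3258 and 2873 at 0 h; all 1 h arrays were above all 0 h arrays, but the difference did not pass (log2 0.56 ± 0.14, adjusted p = 0.065). In all, 4 of 8 measured AP-1 subunits rose and none fell, where 1.06% of all genes rose. The lists were chosen with earlier results of these data known, so this and the later list counts only describe their members.

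The Egr factors are zinc-finger proteins of which Egr1 is the best known marker of neuronal activity. Egr1 had 34354, 27070.5 and 30032 at 1 h, against 493, 652 and 520.5 at 0 h, without overlap, a rise of 53.5-fold (log2 5.74 ± 0.14, adjusted p = 2.42e-10). Egr2 had 4581, 4155 and 5107 at 1 h, against 136, 150.3 and 214 at 0 h, a rise of 25.7-fold (log2 4.68 ± 0.16, adjusted p = 4.25e-09), and its second probe set rose as well. Egr4 had 1750.2, 1814 and 2653 at 1 h, against 72.2, 40.3 and 106 at 0 h, with replicate 3 the highest at both times and 0 h arrays on either side of the background level (log2 4.60 ± 0.29, adjusted p = 1.88e-06). Egr3 stood apart from its relatives: its signals were 169.7, 409 and 315 at 1 h, against 177, 105 and 166 at 0 h, the groups overlapped, and the change did not pass (log2 0.87 ± 0.42, adjusted p = 0.327). Of 7 genes of the Egr factors and their Nab corepressors 3 rose and none fell, where 1.06% of all genes rose.

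The Nr4a genes encode orphan nuclear receptors that act without a known ligand. Nr4a1 had 10923, 9986 and 11351 at 1 h, against 194, 177 and 262 at 0 h, a rise of 48.0-fold (log2 5.58 ± 0.14, adjusted p = 3.03e-10). Nr4a2 had 567, 432 and 497 at 1 h, against 117, 191 and 155 at 0 h, a smaller rise of 3.05-fold (log2 1.61 ± 0.24, adjusted p = 0.00406). Nr4a3 had 55.8, 63.4 and 66.8 at 1 h, against 53.2, 56.5 and 50.6 at 0 h, at or under the background level on every array, and its other probe set did not pass either (log2 1.70 ± 0.55, adjusted p = 0.135).

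The start regions of Fos, Junb, Fosb, Nr4a1 and Egr2, all among the largest rises, are shown here from the RefSeq table, since these genes rose together. Those of Egr1, Arc and Ier2, also among the largest rises, were not used here. Each window runs 5′ to 3′ from 250 bases before to 50 after the annotated start in GRCm38.p6. Capitals mark matches to the CRE core TGACG or its reverse CGTCA, to TATAAA and to the CArG box, the site of serum response factor.
Fos, chr12:85473640-85473939, plus strand: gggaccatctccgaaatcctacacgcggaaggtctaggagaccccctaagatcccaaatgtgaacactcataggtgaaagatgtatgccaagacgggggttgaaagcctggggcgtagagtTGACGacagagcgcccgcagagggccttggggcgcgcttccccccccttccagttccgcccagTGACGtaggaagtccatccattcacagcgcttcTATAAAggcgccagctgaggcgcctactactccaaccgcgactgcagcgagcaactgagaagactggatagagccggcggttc
Junb, chr8:84978699-84978998, minus strand: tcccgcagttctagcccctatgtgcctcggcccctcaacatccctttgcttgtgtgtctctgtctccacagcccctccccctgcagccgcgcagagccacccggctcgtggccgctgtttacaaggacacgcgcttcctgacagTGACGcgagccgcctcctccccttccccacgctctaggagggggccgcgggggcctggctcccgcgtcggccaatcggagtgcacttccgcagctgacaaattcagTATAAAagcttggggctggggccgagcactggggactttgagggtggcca
Fosb, chr7:19309996-19310295, minus strand: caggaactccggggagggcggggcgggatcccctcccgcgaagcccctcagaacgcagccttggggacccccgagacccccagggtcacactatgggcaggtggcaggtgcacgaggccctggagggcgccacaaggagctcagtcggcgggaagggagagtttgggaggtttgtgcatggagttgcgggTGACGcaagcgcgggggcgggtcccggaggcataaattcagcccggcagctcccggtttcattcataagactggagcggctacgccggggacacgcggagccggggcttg
Nr4a1, chr15:101266596-101266895, plus strand: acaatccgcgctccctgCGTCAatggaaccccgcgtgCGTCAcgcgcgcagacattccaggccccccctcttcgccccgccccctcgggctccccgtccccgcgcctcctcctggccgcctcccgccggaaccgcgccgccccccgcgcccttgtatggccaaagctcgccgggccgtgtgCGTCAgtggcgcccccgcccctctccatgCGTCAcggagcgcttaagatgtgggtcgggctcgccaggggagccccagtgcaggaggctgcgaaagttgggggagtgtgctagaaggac
Egr2, chr10:67537619-67537918, plus strand: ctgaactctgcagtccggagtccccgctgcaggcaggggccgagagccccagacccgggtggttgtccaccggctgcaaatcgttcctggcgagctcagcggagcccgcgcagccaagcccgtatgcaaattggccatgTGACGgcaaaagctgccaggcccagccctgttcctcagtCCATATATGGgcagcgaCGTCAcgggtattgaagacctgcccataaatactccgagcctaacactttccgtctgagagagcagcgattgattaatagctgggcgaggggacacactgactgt
The Fos window held 2 CRE cores, 129 and 66 bases before the start, and a TATAAA 33 bases before it. In the Junb window a core began 106 bases before the start, while the TATAAA began at base 1 from the annotated start, not before it. Nr4a1 had 4 cores, between 233 and 40 bases before the start, and Fosb had 1, 60 bases before it. For Egr2 the table has 5 windows, and the one with the most matches is shown; its CArG box, CCATATATGG, began 72 bases before the start, between 2 CRE cores. A match to these letters is a description of the window and no evidence of binding.

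**Figure D2:**
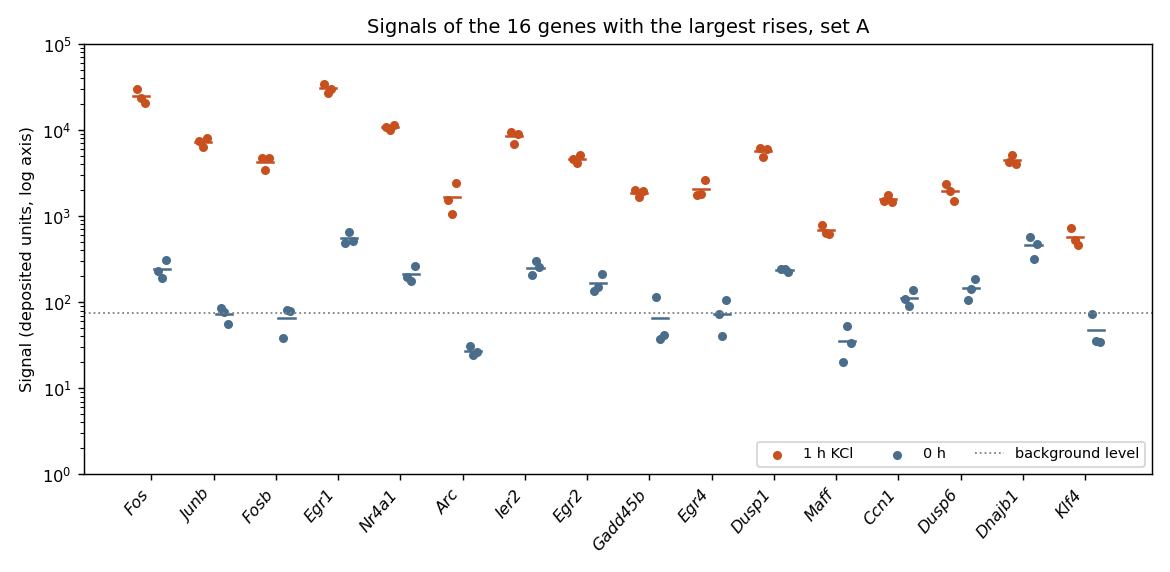
Signals on each of the 3 arrays at 1 h (orange) and at 0 h (blue) for the 16 genes that rose by at least 3 on the log2 scale, with bars at the group means and a dotted line at the background level of 74.8 units (log axis, deposited units). No gene shows overlap between the times, and the 0 h points of Arc, Maff and Klf4 lie under the dotted line.

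Other early transcription regulators followed, 16 of 38 measured rising and 2 falling, where 1.06% of all genes rose and 0.589% fell. The median change was 0.58 over the list and -0.03 over all genes. Ier2, a short nuclear protein gene of the immediate early class, had 9547, 6960.1 and 9065 at 1 h, against 204, 299.6 and 253 at 0 h, a rise of 31.9-fold (log2 4.99 ± 0.16, adjusted p = 2.29e-09). Maff encodes a small Maf protein that lacks a transactivation domain. Its 0 h signals of 19.9, 52.4 and 33.5 were all under the background level and its 1 h signals were 797, 638 and 621, so the rise was at least 7.68-fold (adjusted p = 3.87e-06). Klf4, a Krüppel-like factor, had 726, 522 and 467 at 1 h, against 72.0, 35.1 and 34.2 at 0 h, at least 6.36-fold higher (adjusted p = 0.000145). Atf3, a CREB-family gene induced by many stresses, had 405, 304 and 276 at 1 h, against 31.0, 50.1 and 35.9 at 0 h, at least 3.74-fold higher (adjusted p = 0.000264). All of these 0 h values were at background, so the measured 0 h level sets only a bound. Nfil3, a repressor with a basic leucine zipper, had 2539, 3727 and 2199.6 at 1 h, against 280.2, 467 and 435 at 0 h, a rise of 6.90-fold (log2 2.79 ± 0.21, adjusted p = 9e-06). Fbxo33, an F-box subunit of ubiquitin ligases, had 1553, 1513 and 1648 at 1 h, against 236, 248 and 203 at 0 h, a rise of 6.50-fold (log2 2.70 ± 0.14, adjusted p = 3.04e-07). The narrow spread within each time is plain in its values.

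Smaller rises came from Tiparp, an ADP-ribosyltransferase of the PARP family, by 1.61 on the log2 scale (adjusted p = 0.000168) and from Cited2, a partner of the coactivators CBP and p300, by 1.57 (adjusted p = 9e-06). Creb1 (0.31), Mef2a (0.09), Mef2c (0.11) and Mef2d (0.14), which encode factors that are present before stimulation and were picked here for that role, did not pass on their chosen probe sets. On dimmer probe sets Mef2c rose by 2.07 (adjusted p = 0.00114) and 1.52 (adjusted p = 0.00161). Its changes of 1.05 and 0.24 on other dimmer probe sets did not pass. Mycn, a proto-oncogene of progenitor cells, went the other way with 500.4, 621 and 579 at 1 h, against 1246, 1301 and 1403 at 0 h (log2 -1.20 ± 0.18, adjusted p = 0.0046). Its 2 dimmer probe sets did not pass, at log2 -0.70 and 0.70.

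Arc, whose protein acts in AMPA receptor endocytosis at dendritic spines, rose from a level under background. Its signals were 1553, 1056 and 2396 at 1 h, against 31.1, 24.2 and 26.7 at 0 h. The 0 h arrays all lay under the background level, and the rise was at least 17.6-fold (adjusted p = 2.01e-06). Its 1 h arrays spread widely, replicate 3 being the highest and replicate 2 the lowest. Other members of the list of synaptic and dendritic effectors rose less. Plk2, a kinase that lowers synaptic strength, had 3812, 2333 and 3118 at 1 h, against 1252, 1171 and 1143 at 0 h (log2 1.34 ± 0.15, adjusted p = 0.00059). Ppp1r15a, which directs a phosphatase to the translation factor eIF2, had 1991, 1538 and 1537 at 1 h, against 452, 554 and 495 at 0 h (log2 1.72 ± 0.14, adjusted p = 3.13e-05). Pcdh8, a protocadherin also called arcadlin, had 2058, 2117 and 2109 at 1 h, against 1192, 1199.6 and 1597 at 0 h (log2 0.66 ± 0.13, adjusted p = 0.018). Of 23 measured members of this list 5 rose, Mcl1 being the fifth, and none fell, where 1.06% of all genes rose. Ppp1r15a and Mcl1 stand in the list without being synaptic proteins. Plk2 and Mcl1 are counted in other lists as well.

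Among kinases known to respond to activity 3 of 19 measured rose and none fell, where 1.06% of all genes rose. Sik1, a CREB pathway inhibitor through its action on CRTC coactivators, had 522, 428 and 636 at 1 h, against 106, 123 and 129 at 0 h, a rise of 3.99-fold (log2 1.996 ± 0.22, adjusted p = 0.000463). Pim3, a kinase that promotes survival, had 654, 768 and 741 at 1 h, against 476, 455 and 342 at 0 h (log2 0.75 ± 0.16, adjusted p = 0.0267), and a brighter _x_at probe set rose by 0.82. Plk2 was the remaining member.

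In a list of MAP kinase phosphatases and ERK pathway brakes 5 of 24 measured rose and none fell, where 1.06% of all genes rose. Dusp1, a nuclear phosphatase of MAP kinases, had 6190.1, 4801 and 6018 at 1 h, against 239.8, 246 and 222 at 0 h, a rise of 22.4-fold (log2 4.49 ± 0.13, adjusted p = 7.4e-10). Its 0 h arrays agreed closely with each other. Dusp6, a cytoplasmic phosphatase with a preference for ERK, had 2370.2, 1962 and 1491 at 1 h, against 106, 143 and 187 at 0 h, a rise of 12.2-fold (log2 3.61 ± 0.22, adjusted p = 1.84e-06). Errfi1, an inhibitor of the EGF receptor, had 634, 824 and 725 at 1 h, against 313, 382 and 262 at 0 h (log2 1.16 ± 0.16, adjusted p = 0.00238). The list also holds Siah2, a ubiquitin ligase that is not itself a brake of this kind. It had 751, 719 and 877 at 1 h, against 254, 277 and 306 at 0 h (log2 1.44 ± 0.15, adjusted p = 0.00025). Rasa1, a GTPase activator of Ras, had 790.1, 815 and 758 at 1 h, against 533, 403 and 553 at 0 h (log2 0.66 ± 0.14, adjusted p = 0.027). The remaining 19 did not pass.

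Regulators of G-protein signalling limit the activity of G-protein alpha subunits. Rgs4 had 2532, 2182 and 2373 at 1 h, against 515, 436 and 534 at 0 h, a rise of 4.66-fold (log2 2.22 ± 0.12, adjusted p = 4.05e-07), and all 3 of its probe sets rose. Rgs2 had 1001, 927 and 931 at 1 h, against 253, 122 and 223 at 0 h, a rise of 4.68-fold (log2 2.23 ± 0.20, adjusted p = 6.19e-05). Rgs16 had 198, 357 and 362 at 1 h, against 135, 117 and 148 at 0 h, with replicate 1 at 1 h well below the other 1 h arrays (log2 1.06 ± 0.24, adjusted p = 0.0359). Rem2, a small GTPase that inhibits voltage-gated calcium channels, had 631, 584 and 604 at 1 h, against 181, 230.0 and 345 at 0 h, with the 0 h arrays spread widely (log2 1.26 ± 0.20, adjusted p = 0.00657). In this list 4 of 18 rose and none fell, where 1.06% of all genes rose.

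Antiproliferative factors that promote mRNA decay were another group, 3 of 12 rising and none falling, where 1.06% of all genes rose. Btg2 had 4079, 3948 and 4059.9 at 1 h, against 685, 562 and 583 at 0 h, with a narrow spread at both times, a rise of 6.49-fold (log2 2.70 ± 0.12, adjusted p = 6.88e-08). Tob1 had 1419, 1474 and 1068 at 1 h, against 418, 283 and 567 at 0 h (log2 1.65 ± 0.21, adjusted p = 0.00152) and Btg1 had 2302, 2126 and 2413 at 1 h, against 1109, 1401 and 1411 at 0 h (log2 0.80 ± 0.12, adjusted p = 0.00433). Btg2 thus changed most, and its second probe set rose by 2.94.

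Growth arrest and survival genes moved in both directions, 3 of 20 rising and 2 falling, where 1.06% of all genes rose and 0.589% fell. Gadd45b, linked to DNA demethylation in active neurons, had 2002, 1679.8 and 1946 at 1 h, against 116, 37.6 and 42.1 at 0 h, where 1 of the 0 h arrays was above background (log2 4.67 ± 0.31, adjusted p = 2.83e-06). Gadd45g had 1836, 1983 and 1339.9 at 1 h, against 422, 410.5 and 413 at 0 h (log2 1.99 ± 0.15, adjusted p = 9e-06). Mcl1, an antiapoptotic relative of Bcl2, had 3211, 2693 and 2519 at 1 h, against 1580.4, 1276 and 1180.1 at 0 h (log2 1.06 ± 0.16, adjusted p = 0.00403), and all 6 of its probe sets rose. The falling members were Sesn1, a stress-responsive sestrin, with 683, 532 and 579 at 1 h, against 937, 887 and 979 at 0 h (log2 -0.64 ± 0.14, adjusted p = 0.0317), and Ddit4, an inhibitor of mTOR signalling, with 1408, 1537 and 1285 at 1 h, against 1875, 1969.7 and 2402 at 0 h (log2 -0.55 ± 0.12, adjusted p = 0.033). The falls were small beside the rises of the Gadd45 genes. Dimmer probe sets of Bcl2l1 and Cdkn1a also rose, by 1.56 (adjusted p = 0.0194) and 1.14 (adjusted p = 0.036), while their chosen ones did not pass.

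Of the heat shock proteins and cochaperones 2 of 25 rose on their chosen probe sets and 1 fell. Over all genes 1.06% rose and 0.589% fell. Dnajb1, the main cytosolic cochaperone of Hsp70, had 4225, 5137 and 3997 at 1 h, against 578, 319 and 479.6 at 0 h, a rise of 9.61-fold (log2 3.27 ± 0.19, adjusted p = 1.04e-06). Its other probe set averaged 3995 at 1 h, against 1041 at 0 h, a smaller rise (log2 1.94 ± 0.15, adjusted p = 1.01e-05). Dnajb9, a cochaperone of the endoplasmic reticulum, had 1214, 1075 and 1281 at 1 h, against 813, 703 and 571 at 0 h (log2 0.77 ± 0.15, adjusted p = 0.018). Hspa1a (0.44), Hspa1b (0.07), Hspb1 (-0.08) and Hsph1 (-0.46), which heat stress is known to induce, did not pass. For Hsp90aa1 the chosen probe set did not pass (0.12), while a dimmer one rose by 1.05 (adjusted p = 0.0149). Dnaja3, a mitochondrial cochaperone, fell, with 93.8, 107 and 178 at 1 h, against 365, 353 and 416 at 0 h (log2 -1.51 ± 0.26, adjusted p = 0.0103), while its 2 other probe sets did not pass.

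Secreted proteins and neuropeptides had 4 of 33 measured members rising and none falling, where 1.06% of all genes rose. Scg2, secretogranin II of dense-core vesicles, had 4888, 5738 and 5107 at 1 h, against 1678, 1790.2 and 1722 at 0 h, a rise of 3.01-fold (log2 1.59 ± 0.10, adjusted p = 2.6e-06). Adcyap1, the gene of the neuropeptide PACAP, had 525, 719 and 799 at 1 h, against 269, 227 and 233 at 0 h (log2 1.41 ± 0.19, adjusted p = 0.00196). Ccn1 and Ccn2 encode matricellular proteins. Ccn1 had 1479, 1773 and 1461 at 1 h, against 110.2, 90.0 and 138 at 0 h, a rise of 12.4-fold (log2 3.64 ± 0.23, adjusted p = 1.88e-06), and its brighter _x_at probe set rose by 3.97. Ccn2 had 371, 622 and 439.8 at 1 h, against 145, 190.4 and 151 at 0 h (log2 1.45 ± 0.25, adjusted p = 0.0118).

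Bdnf, the neurotrophin most studied in activity-dependent transcription, depended on the probe set. The brighter one had 514, 472 and 388 at 1 h, against 318, 93.2 and 276 at 0 h, where replicate 2 at 0 h lay far below the other 0 h arrays, and it did not pass (log2 1.10 ± 0.33, adjusted p = 0.108). The dimmer one had 226, 167 and 246 at 1 h, against 17.9, 32.1 and 103 at 0 h, without overlap, and rose by 1.97 ± 0.37 (adjusted p = 0.0176). At 6 h both were much higher, the brighter by 3.39 and the dimmer by 5.21 over 0 h on the log2 scale.

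**Figure D3:**
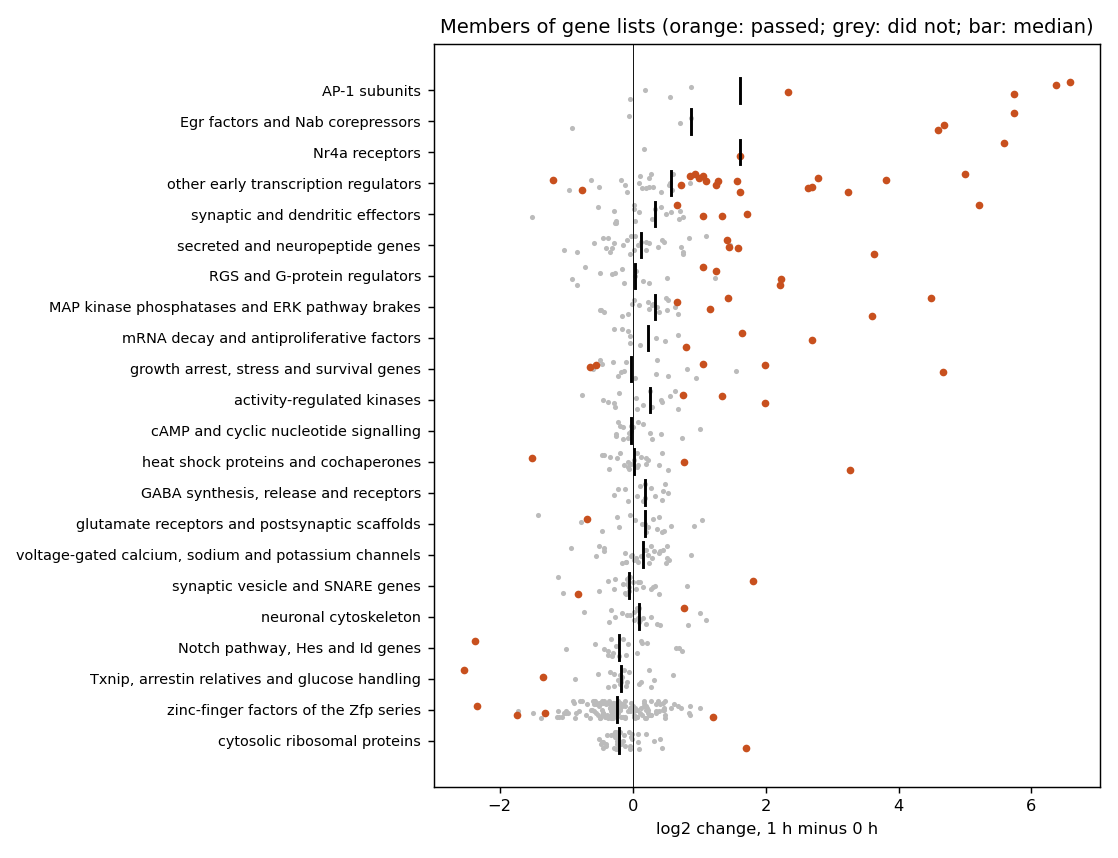
Each point is a measured member of a gene list, placed by its log2 change, 1 h minus 0 h; orange points passed at an adjusted p under 0.05, grey points did not, and black bars are list medians. Orange points on the right fill the upper lists, and the points farthest left are in the Notch, Txnip and Zfp lists.

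Genes of synapses and excitability are given by count, beside the 1.06% of all genes that rose and the 0.589% that fell; in lists of this size those shares amount to 1 gene or fewer. Of 30 voltage-gated channel genes 0 passed in limma on their chosen probe sets (3 at an unadjusted p under 0.05). Of 18 genes of cyclic nucleotide signalling 0 passed (2), though a dimmer Prkar1a probe set rose by 1.27 (adjusted p = 0.0112). Of 15 genes of GABA synthesis, release and reception 0 passed (0), at a median change of 0.19. Gad1, the main GABA-synthesizing enzyme, had 2569, 3505 and 3480.3 at 1 h, against 2760.5, 2572 and 2997 at 0 h, with overlap (log2 0.19 ± 0.13, adjusted p = 0.534), and Gad2 had 305, 191 and 277 at 1 h, against 180.2, 178 and 236 at 0 h, with overlap (log2 0.34 ± 0.24, adjusted p = 0.53). The dimmer Gad1 probe set had 1769.7, 2179.7 and 2281 at 1 h, against 932, 576 and 1292 at 0 h and rose (log2 1.21 ± 0.23, adjusted p = 0.018). Among 20 glutamate receptors and scaffolds Dlg3, a postsynaptic scaffold, was the member that passed; it fell, with 863, 713 and 923 at 1 h, against 1386, 1451 and 1222 at 0 h (log2 -0.69 ± 0.14, adjusted p = 0.023). Among 27 vesicle and SNARE genes Syt1, the calcium sensor of release, rose, with 1072, 1053 and 911 at 1 h, against 360.4, 116 and 485 at 0 h (log2 1.81 ± 0.36, adjusted p = 0.023). Syp, the vesicle protein synaptophysin, fell, with 2311, 2391 and 2378 at 1 h, against 4908, 4271 and 3476 at 0 h (log2 -0.82 ± 0.12, adjusted p = 0.00446). Read on the probe set of smallest p, 4 of the 27 rose, among them Slc17a6 on a dimmer probe set (log2 1.32, adjusted p = 0.00172).

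Some rises of neuronal genes came with uneven 0 h arrays. Kif5c, a kinesin heavy chain, had 826, 703 and 795 at 1 h, against 77.8, 73.3 and 433 at 0 h, with replicate 3 at 0 h several times above the other 0 h arrays (log2 2.34 ± 0.48, adjusted p = 0.0248). With the Gapdh ratio as a covariate its change was 0.95 (adjusted p = 0.788) and with the Actb ratio -0.05 (adjusted p = 0.996). On its other probe set Kif5c had 591, 250.4 and 418 at 1 h, against 199, 383 and 293 at 0 h. These overlapped and did not pass (log2 0.47 ± 0.31, adjusted p = 0.491). Mapt, the microtubule protein tau, had 4772, 3569.9 and 4249 at 1 h, against 2087, 2382 and 2891 at 0 h and rose on all 3 probe sets (log2 0.77 ± 0.14, adjusted p = 0.0162), with adjusted p of 0.569 and 0.99 under those covariates. Syt1 likewise had adjusted p of 0.778 and 0.99. None of the 3 passed with either ratio in the model.

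Rises were also more frequent on probe sets dimmer than the chosen one of the same gene. They made up 3.50% of 7576 dimmer probe sets and 1.06% of 12393 chosen or only ones, whereas falls made up 0.356% and 0.589%. Of 411 _x_at probe sets brighter than the chosen one 6 rose and 4 fell. On a probe set other than the chosen one alone 210 genes rose. For 72 genes that rose on the chosen one of several probe sets, every probe set rose in 22. Of 34 genes that fell on the chosen one of several, every probe set fell in none. The genes with rises on other probe sets had a median length of 38.1 kb, against 15.1 kb for genes that rose on the chosen one and 20.1 kb over all genes.

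In lists of housekeeping genes the counts were small, and over all genes 1.06% rose and 0.589% fell. Among 42 cytosolic ribosomal protein genes 1 rose, Rpl41, with 248, 89.9 and 159 at 1 h, against 33.2, 43.4 and 32.6 at 0 h (log2 1.70 ± 0.40, adjusted p = 0.0445), on a dim probe set. Of its 3 _x_at probe sets 2, by far the brightest of the gene, averaged 26349.5 and 13645 at 1 h, against 26178 and 11482 at 0 h, with changes of 0.04 and 0.22 that did not pass, and the third did not pass either. Of 41 proteasome subunits 0 passed (7 at an unadjusted p under 0.05), 1 respiratory chain gene of 78 fell (Ndufc2, log2 -0.58 ± 0.11, adjusted p = 0.0218) and 1 translation initiation factor of 42 fell (Eif1b, log2 -0.81 ± 0.14, adjusted p = 0.0128). Of 38 splicing factors 3 rose: Srsf5, an SR protein, had 7861, 7187 and 7162 at 1 h, against 2804, 2563 and 3325 at 0 h (log2 1.36 ± 0.12, adjusted p = 6.23e-05), and Hnrnpdl and Hnrnpll rose by 0.58 and 0.53. Among 58 chromatin enzymes Hdac9 rose, at least 1.502-fold from a 0 h level under background (adjusted p = 0.00161), and Smarcd3, a subunit of BAF complexes, fell by 0.59 (adjusted p = 0.0203). Of 245 solute carriers 2 rose, the amino acid carriers Slc38a1 (0.88) and Slc38a2 (0.85), and 2 fell, Slc1a3 (-0.54) and Slc25a20 (-0.83).

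Met, the receptor of hepatocyte growth factor, was a further large rise outside these lists. Its 0 h signals of 29.4, 23.9 and 36.7 lay under background and its 1 h signals were 358, 278 and 276, at least 3.50-fold higher (adjusted p = 0.000264).

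Falls were fewer and smaller, and 7 of 73 falling genes had a 1 h mean at or under background. Txnip, an arrestin-fold protein that binds thioredoxin and limits glucose uptake, fell most. It had 316, 169 and 189 at 1 h, against 1221, 1231 and 1585 at 0 h, without overlap (log2 -2.54 ± 0.44, adjusted p = 0.0117). Its second probe set did not pass (log2 -1.49 ± 0.49, adjusted p = 0.142). Ppp1r3c, which targets a phosphatase to glycogen, had 387, 403 and 400.4 at 1 h, against 1021, 1110.2 and 966 at 0 h, very even at both times (log2 -1.34 ± 0.15, adjusted p = 0.000463). Together they were the 2 of 24 measured genes of the Txnip and glucose list that fell, and none rose, where 0.589% of all genes fell.

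Hes5, a Notch target of progenitor cells and astrocytes, had 64.5, 12.3 and 115 at 1 h, against 347, 399.8 and 255 at 0 h (log2 -2.37 ± 0.47, adjusted p = 0.0226), with 1 of the 1 h arrays above background. On the chosen probe sets it was the member that passed of 21 in the Notch, Hes and Id list, where 0.589% of all genes fell. A dimmer probe set of Id4, in the same list, rose by 1.07 (adjusted p = 0.00999). Hyal2, a hyaluronidase, had 131, 135 and 131 at 1 h, against 494, 621 and 405 at 0 h, with 1 h arrays nearly identical (log2 -1.80 ± 0.25, adjusted p = 0.00241). Med22, a Mediator subunit, had 561, 333 and 423 at 1 h, against 747, 1238 and 939 at 0 h (log2 -1.12 ± 0.23, adjusted p = 0.0245). Wnt7a, a secreted ligand that promotes synapse formation, had 250.7, 227 and 216 at 1 h, against 374, 582 and 459 at 0 h (log2 -0.96 ± 0.22, adjusted p = 0.0378). Ptpru, a receptor tyrosine phosphatase, had 244, 242 and 244 at 1 h, against 455, 607 and 474 at 0 h (log2 -1.02 ± 0.21, adjusted p = 0.0259), and Sall2, a zinc-finger factor, had 234, 301 and 279 at 1 h, against 616, 527 and 508 at 0 h (log2 -0.98 ± 0.21, adjusted p = 0.027). Hyal2, Med22, Wnt7a, Ptpru and Sall2 all had 1 h signals above background and no overlap between the times. Both traits were in part set by the way falls were chosen for naming.

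Zinc-finger genes of the Zfp series had 3 of 157 falling and 1 rising, where 0.589% of all genes fell and 1.06% rose, with a median of -0.24, against -0.03 over all genes. Zfp235 had 15.1, 35.8 and 21.6 at 1 h, against 195, 189.6 and 168 at 0 h, under background on every 1 h array, so that the 0 h level was at least 2.20-fold higher (adjusted p = 0.00924). Zfp329 had 71.2, 62.6 and 67.0 at 1 h, against 263, 272 and 250.02 at 0 h, also under background at 1 h, with a 0 h level at least 3.06-fold higher (adjusted p = 0.012). Zfp87 had 166, 129.7 and 114 at 1 h, against 392, 290.3 and 407 at 0 h (log2 -1.31 ± 0.24, adjusted p = 0.0153), and the rise was Zfp948 (log2 1.20 ± 0.28, adjusted p = 0.0479). In the same way Cdc42ep5, an effector of the GTPase Cdc42, had 46.1, 41.4 and 55.9 at 1 h, against 271, 136 and 249.7 at 0 h, at least 2.49-fold higher at 0 h (adjusted p = 0.0193), while its dimmer probe set had a change of 0.97. Ppcs, Tesc and Foxi1 were likewise under background at 1 h.

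Markers of other cells were read beside the falls, since fewer cells of a type and less RNA per cell cannot be told apart in bulk cultures. The summed signal of 8 astrocyte markers was 9920 to 13058 at 1 h, against 14597 to 15143 at 0 h, without overlap. Of these, Slc1a3, the glutamate transporter GLAST, fell, with 2276, 1981 and 2058 at 1 h, against 3066, 3200.0 and 2956 at 0 h (log2 -0.54 ± 0.12, adjusted p = 0.034), and its other probe sets had changes of 0.07 and 1.11. The sum is led by bright members: Slc1a2, the glutamate transporter GLT-1, averaged 76.4 at 1 h, against 14.3 at 0 h, near and under the background level (log2 1.53, adjusted p = 0.0716), and Sox9 had a change of 0.60 (adjusted p = 0.393). The 6 others had changes from -0.54 to -0.10, and the median over the list was -0.32. Dividing progenitor markers summed to 2616 to 3312 at 1 h, against 3098 to 4157 at 0 h, with overlap. The part of these cells in the falls of Hes5 and Mycn was not tested. Neuronal markers summed to 53480 to 57243 at 1 h, against 51561 to 54132 at 0 h, and none of the 8 was at background. The 4 excitatory markers measured, of 6 listed, summed to 2601 to 3132 at 1 h, against 3102 to 4060.0 at 0 h, and the 6 inhibitory markers to 4926 to 5711 at 1 h, against 4869 to 5651 at 0 h, both with overlap. Slc17a6 among the excitatory and Gad1 among the inhibitory markers rose on dimmer probe sets. Microglial markers summed to 1026 to 1243 at 1 h, against 889 to 1330 at 0 h, with Itgam at background, and vascular and fibroblast markers to 894 to 970.0 at 1 h, against 764 to 803 at 0 h. Oligodendrocyte markers summed to 5529 to 7447 at 1 h, against 6509 to 9094 at 0 h, with Mog at background.

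How firmly each call stood differed by direction. With the Gapdh ratio as a covariate 59 probe sets were higher and 0 lower, and with the Actb ratio 44 were higher and 0 lower; at an unadjusted p under 0.05, both directions together, these fits held 1546 and 1174 probe sets. All 73 falling genes kept a negative change in both fits, but none passed, the lowest adjusted p being 0.0861 and 0.333. Of the 131 rising genes 40 passed with the Gapdh ratio and 30 with the Actb ratio. The ratios and the time with KCl move together in these arrays, so their parts in the falls and the smaller rises cannot be told apart.

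Across the 18 ways of processing 29 genes passed every time, and all of them were rises. This group was formed after the values were seen. Every other gene that rose or fell on its chosen probe set was not called in at least 1 of the 18. In order of size the group held Fos, Junb, Fosb, Egr1, Nr4a1, Arc, Ier2, Egr2, Gadd45b, Egr4, Dusp1, Maff, Ccn1, Dusp6, Dnajb1, Nfil3, Fbxo33, Btg2, Jun, Rgs4, Gadd45g, Adamts1, Ppp1r15a, Tiparp, Scg2, Cited2, Pnrc1, Atf4 and Errfi1. Of 13 with several probe sets, every probe set rose in 10. Their median gene length was 3.75 kb, against 20.1 kb over all genes. Among them Atf4, the translation-controlled factor of the stress response, had 5539.7, 5329 and 5977 at 1 h, against 2662, 2487 and 1803 at 0 h (log2 1.29 ± 0.14, adjusted p = 0.000315). Adamts1, a secreted metalloprotease, had 836, 666 and 572 at 1 h, against 229, 186 and 131 at 0 h (log2 1.85 ± 0.21, adjusted p = 0.000429), and Pnrc1, a nuclear receptor coactivator, had 2084, 2469 and 2222 at 1 h, against 916, 868 and 722 at 0 h (log2 1.42 ± 0.12, adjusted p = 4.52e-05).

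**Figure D4:**
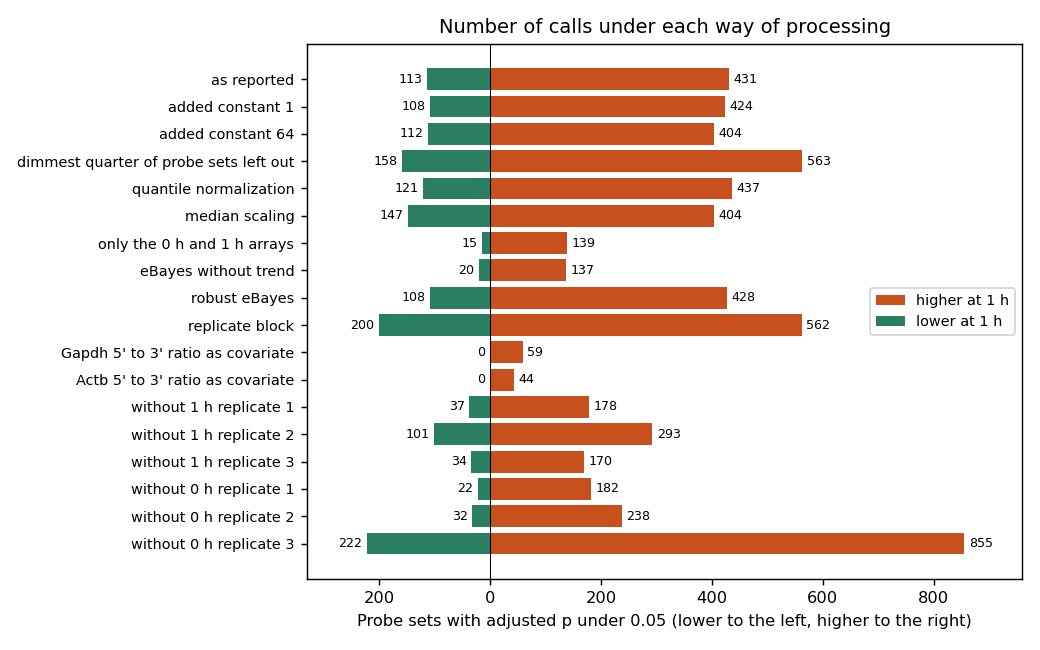
Number of probe sets higher (orange, to the right) and lower (green, to the left) at 1 h than at 0 h with an adjusted p under 0.05 under each of 18 ways of processing. The count runs from 44 higher and 0 lower with the Actb ratio to 855 higher and 222 lower without replicate 3 at 0 h.

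The start regions of the rising genes were read for motifs on both strands. The cAMP response element (CRE), TGACGTCA, which CREB binds, stood in the windows of 15 of 111 rising genes with a window (13.5%), against 1 of 67 falling genes (1.49%) and 296 of 9887 genes of the array (2.99%). Over all 32851 windows the share was 1.79%. Its core TGACG, which the full site contains, stood in 57.7% of rising genes, 37.3% of falling genes and 31.4% of all. TATAAA was in 22.5% of rising and 11.9% of all genes, and the CArG box in 2.70% and 1.75%. The AP-1 site TGANTCA was in 7.21% of rising genes and 7.69% of all, and the EGR site GCGTGGGCG in 2.70% and 1.24%. Rising genes also had a higher median GC content of their windows, 64%, against 60.7% in falling genes and 59.3% in all. The part of GC content in the motif shares was not tested. Where a gene has several windows, a match in any of them was counted.

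Of the genes that passed every time, 6 of 26 with a window held a full CRE (23.1%), and these sites are shown with 11 bases on either side, 5′ to 3′ along the gene, with the CRE in capitals (GRCm38.p6).
Dusp1, chr17:26508597-26508626, minus strand: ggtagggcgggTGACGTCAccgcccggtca
Maff, chr15:79347480-79347509, plus strand: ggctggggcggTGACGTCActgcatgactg
Btg2, chr1:134079303-134079332, minus strand: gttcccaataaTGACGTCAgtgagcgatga
Ppp1r15a, chr7:45526262-45526291, minus strand: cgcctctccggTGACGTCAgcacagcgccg
Scg2, chr1:79440076-79440105, minus strand: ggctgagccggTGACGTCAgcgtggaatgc
Errfi1, chr4:150855008-150855037, plus strand: gctgcgggcgtTGACGTCAcgttgtcgctc
The site began 143 bases before the start of Dusp1, 29 before that of Maff, 166 before that of Btg2, 12 before that of Ppp1r15a, 68 before that of Scg2 and 51 before that of Errfi1. Rises of these genes ran from 1.16 for Errfi1 to 4.49 for Dusp1 on the log2 scale. Other rising genes with a full CRE included Kif5c, Plk2 and Ccnl1.

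The 6 h arrays of the same set share the 0 h arrays with this comparison, and the values of the rising genes at the 3 times are given side by side. Arc averaged 27.3 ± 3.46 at 0 h, 1668 ± 677 at 1 h and 33.3 ± 5.06 at 6 h (SD, n = 3 each), so its 6 h level was again under background. Jun averaged 959 ± 145 at 0 h, 4942 ± 991 at 1 h and 824 ± 25.9 at 6 h, and Btg2 609.7 ± 65.9 at 0 h, 4029 ± 71.0 at 1 h and 625 ± 64.8 at 6 h. In these genes the 6 h arrays lay near the 0 h arrays. Fos averaged 245 ± 61.8 at 0 h, 24849 ± 5054 at 1 h and 3862 ± 591 at 6 h and Nr4a1 211 ± 45.1 at 0 h, 10753 ± 698 at 1 h and 2452 ± 296 at 6 h. Their 6 h levels were between those of the other times. Dusp1 averaged 236 ± 12.02 at 0 h, 5669.8 ± 757 at 1 h and 2099 ± 255 at 6 h. Rgs2 averaged 199 ± 68.6 at 0 h, 953 ± 41.7 at 1 h and 4173 ± 129 at 6 h, and Scg2 1730.1 ± 56.7 at 0 h, 5244 ± 442 at 1 h and 16386 ± 388 at 6 h, both highest at 6 h. Nfil3 averaged 394 ± 99.8 at 0 h, 2822 ± 802 at 1 h and 4418 ± 348 at 6 h. Between 6 h and 1 h directly, 1766 of 22626 probe sets differed (7.81%).

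**Figure D5:**
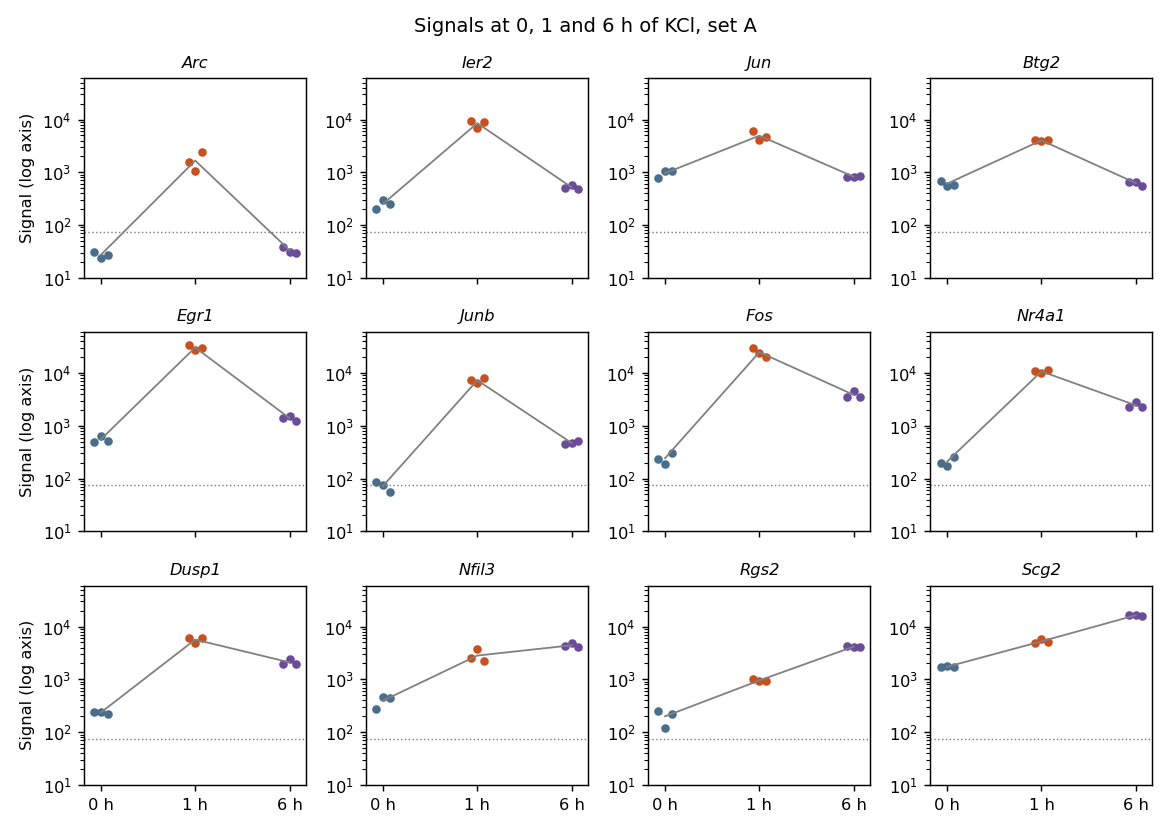
Signals of 12 rising genes on each of the 3 arrays at 0, 1 and 6 h of KCl (log axis, deposited units), with lines through the means and a dotted line at the background level of 74.8 units. Arc, Jun and Btg2 peak at 1 h and lie near their 0 h level at 6 h, while Rgs2 and Scg2 are highest at 6 h.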

How the data were processed

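The authors deposited 1 linear intensity value per probe set and array for set A, scaled so that every array had the same trimmed mean. No source used here names the software, the background correction or the way probes were summarised. Probe sets were named from the platform annotation, 20380 with 1 symbol, 691 with several (never named) and 1555 with none. The 9 set A arrays were fitted in limma 3.58.1 (R 4.3.3) on log2(value + 16) with 1 mean per time and a variance trend with intensity, two-sided. The fit was tested on simulated data. Replicate numbers were not used: the deviations of same-numbered arrays correlated at 0.00844 to 0.139, all positive but not all over 0.1. Those of differently numbered arrays correlated at -0.102 to 0.027. Where nothing else marks separate cultures, the p-values measure the spread between these arrays, and 3 arrays per time limit the precision.

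Each gene stands for its brightest probe set by mean over the 9 arrays, _x_at probe sets being used only where the gene had no other. A gene below background on every array of a time was given a bound ("at least"), the bright mean against the background level. Named were the 25 largest rises and the 15 largest falls among passing genes whose 1 h and 0 h arrays did not overlap. The 15 largest falls with a 1 h mean above background were added, with or without overlap. Up to 8 passing and 3 other members of each of 36 lists were named as well. Members and lists were chosen with earlier results of these data known. Alternatives were the added constant (1 or 64), a filter on the dimmest 25%, quantile and median scaling, the arrays and variance model used, a replicate block, the 5′ to 3′ ratios and leaving out each array. Sequences are from the RefSeq table of GRCm38.p6; Egr1, Arc and Ier2 were not used there.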

Additional observations from a re-analysis of the deposited data

Results flagged for a closer look

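Among the 47 genes named for the size of their rise or fall, the effect at 6 h differed from that at 1 h in 22. The difference was tested directly (limma, adjusted p under 0.05), and 7.81% of all probe sets differed. The effect was lower at 6 h in 18 genes and higher in 4. The difference, 6 h minus 1 h on the log2 scale, was -5.02 for Arc, -4.43 for Egr1, -3.99 for Ier2, -3.94 for Gadd45b, -3.90 for Junb and -3.50 for Egr2. It was -2.67 for Fos, -2.66 for Fosb, -2.59 for Egr4, -2.13 for Nr4a1, -2.66 for Btg2, -2.54 for Jun, -2.35 for Klf4 and -2.31 for Dnajb1. Smaller differences were -1.98 for Ccn1, -1.70 for Fbxo33, -1.42 for Dusp1 and -1.17 for Dusp6. The higher effects at 6 h were 2.11 for Rgs2, which rose further, and 1.66 for Ppp1r3c, 1.11 for Hyal2 and 0.86 for Mphosph8, which had fallen at 1 h and lay nearer to their 0 h level at 6 h. These genes were chosen by the size of their change at 1 h, and the rises also by arrays without overlap. This choice bears on the direction of the difference.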

How the results depend on the processing

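As reported, 544 probe sets passed, 431 higher and 113 lower at 1 h, and 80 members of the gene lists passed. Fitting only the 0 h and 1 h arrays gave 154 (139 higher, 15 lower; 53 list members), and a variance model without trend 157 (137 higher, 20 lower; 50 list members). The Gapdh ratio as a covariate gave 59 (all higher, 0 lower; 34 list members) and the Actb ratio 44 (all higher, 0 lower; 28 list members). A replicate block gave 762 calls, 562 higher and 200 lower. Deviations of same-numbered arrays all correlated positively, at 0.00844 to 0.139, against -0.102 to 0.027 for different numbers. Still, not every array deviated most like its own number: replicate 2 at 0 h correlated at 0.00844 with replicate 2 and at 0.027 with replicate 1 at 1 h. Pairing by number is therefore neither shown nor excluded. Leaving out 1 array at a time gave 204 to 1077 calls, 170 to 855 higher, 22 to 222 lower and 56 to 100 list members. Without replicate 3 at 0 h there were 1077 calls, without replicate 1 or replicate 3 at 1 h 215 and 204, and without replicate 1 or replicate 2 at 0 h 204 and 270. Added constants, both scalings, the robust fit and the filter on dim probe sets gave 516 to 721 calls. Of 87 named genes that passed, 83 or more kept the call with either added constant, quantile normalization or the robust fit, 80 with median scaling, 33 with the Gapdh ratio, 26 with the Actb ratio and 56 to 81 when 1 array was left out. With _x_at probe sets allowed as the brightest, a choice added after seeing the data, 132 genes rose and 75 fell, 130 and 73 of them shared with the 131 and 73 reported. Another probe set had the opposite sign, none passing, in 13 of 72 rising and 19 of 34 falling genes with several; of the genes described these were Ddx5 (-0.078), Mt1 (0.68), Ncan (0.073), Cdc42ep5 (0.97), Hnrnpll (-0.060), Mphosph8 (0.12), Mycn (0.70), Ppp1r3c (0.10), Slc1a3 (0.073 and 1.11) and Tesc (0.20). With the Actb ratio the change was -0.048 for Kif5c and -0.13 for Gad2. The cause of these differences was not tested. The number of arrays limits the precision, and a signal under the background level gives only a bound.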

Other observations

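Some rises outside the fixed lists, picked here after their values were seen, concern RNA processing and intracellular signalling. Ccnl1, a cyclin that regulates pre-mRNA splicing, had 2837, 1773 and 1679 at 1 h, against 646, 630.4 and 657 at 0 h (log2 1.64 ± 0.17, adjusted p = 0.000254). Clk1, a kinase of SR proteins, had 1644, 1425 and 1305 at 1 h, against 836, 718 and 831 at 0 h (log2 0.86 ± 0.13, adjusted p = 0.00537). Ddx5, an RNA helicase, had 4898, 4229.9 and 4398 at 1 h, against 2346, 2615 and 3050.2 at 0 h (log2 0.76 ± 0.12, adjusted p = 0.00688). Each had all 1 h arrays above all 0 h arrays. Plcb1, a phospholipase C, had 256, 259.7 and 286 at 1 h, against 34.7, 77.5 and 103 at 0 h (log2 1.78 ± 0.33, adjusted p = 0.0171), and Ifrd1, a transcriptional coregulator, had 1988, 2119 and 1403 at 1 h, against 885, 660.2 and 579.6 at 0 h (log2 1.35 ± 0.20, adjusted p = 0.00348).

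Falls outside the lists included the metallothioneins Mt1, with 11731, 9394 and 10249.6 at 1 h, against 17442, 18194 and 13665 at 0 h (log2 -0.65 ± 0.14, adjusted p = 0.034) and Mt2, with 8059.6, 7813 and 8964 at 1 h, against 13186, 13396 and 12293 at 0 h (log2 -0.65 ± 0.12, adjusted p = 0.0137). The 1 h arrays were below the 0 h arrays in both. Metallothioneins bind zinc and copper, and near-identical copies of the family may share probes. Ncan, a chondroitin sulphate proteoglycan of the brain matrix, had 8248, 6708 and 7926 at 1 h, against 13076, 14198 and 10094 at 0 h (log2 -0.70 ± 0.15, adjusted p = 0.034). Its second probe set had 674, 872 and 677 at 1 h, against 619.9, 629 and 875 at 0 h, and did not pass (log2 0.073 ± 0.19, adjusted p = 0.899). Like all other falls, none of these passed with the Gapdh or the Actb ratio as a covariate.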
